A study of Mus musculus with 6 samples.

Results

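The genes described here are 9 integrin chains (5 α chains, Itgae, Itga4, Itga6, Itgal and Itgav, and 4 β chains, Itgb7, Itgb1, Itgb2 and Itgb3) and Cdh1, which encodes E-cadherin. They were chosen by name as an adhesion family, with the FPKM differences between the genotypes in these same libraries already known, and all 10 were found among the 25759 gene identifiers of the deposited table. FPKM is the number of sequenced fragments scaled to transcript length and library size. The cells were adaptive regulatory T cells (aTreg), which switch on the transcription factor Foxp3 during culture. Lymph node and spleen cells of C57BL/6 mice aged 8 to 12 weeks, all carrying a Foxp3GFP reporter transgene, were stimulated for 3 days with the mitogen concanavalin A at 2 µg/ml plus 3 ng/ml TGF-beta and 10 ng/ml IL-2, and CD4+ Foxp3GFP+ cells were sorted. The WT group (wild type) had 3 libraries, as had the BMPR1a-deficient group from BMPR/CD4cre mice, where Cre driven by Cd4 acts on BMPR1a, a receptor for bone morphogenetic proteins. This Cre works in αβ T cells from the thymus onward and not in aTreg alone. Nothing in the labels ties the libraries of a group to separate animals or cultures, so p-values measure the spread between these libraries, which may be technical.

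Integrins are cell surface adhesion receptors made of 1 α and 1 β chain, and neither chain reaches the surface well without a partner. αE pairs with β7 to form CD103, which binds E-cadherin on epithelial cells and is found on tissue-resident and regulatory T cells. TGF-beta is a known inducer of αE in T cells. β7 also pairs with α4 to form the gut-homing receptor for MAdCAM-1, while α4β1 binds VCAM-1, α6β1 binds laminin and αLβ2 (LFA-1) binds ICAMs. αvβ3 binds vitronectin and other ligands, and αv integrins also bind the latent form of TGF-beta.

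The chains share short sites in their cytoplasmic tails that link them to the cell's interior, and these stretches show how alike the chains are as RNA where their function is shared. In each β chain a site of the NPxY type (tyrosine or phenylalanine last) binds the activating adaptor talin. Its codons are in capitals below, with 9 coding bases on each side, written 5′ to 3′ as in the principal transcripts of GENCODE M21 (GRCm38).
Itgb7: caggacaacAATCCTCTCTACaaaagtgcg
Itgb1: acgggtgaaAATCCTATTTACaagagtgcc
Itgb2: aacaatgacAACCCCCTCTTCaagagtgct
Itgb3: acagcaaacAACCCGCTGTATaaagaggcc
The Itgb7 stretch spans chr15:102216241-102216474 on the minus strand. The other stretches are on the plus strand, Itgb1 at chr8:128726184-128732049, Itgb2 at chr10:77564799-77565201 and Itgb3 at chr11:104665630-104667106. Of the 30 bases, Itgb3 shared 17 with Itgb7, 16 with Itgb1 and 15 with Itgb2, while Itgb7 and Itgb1 shared 20. In each α chain a short site next to the membrane clasps the β chain, and its codons are in capitals in the same way.
Itgae: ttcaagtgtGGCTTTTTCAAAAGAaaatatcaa
Itga4: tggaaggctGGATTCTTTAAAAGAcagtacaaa
Itga6: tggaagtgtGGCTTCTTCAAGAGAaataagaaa
Itgal: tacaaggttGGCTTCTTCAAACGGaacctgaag
Itgav: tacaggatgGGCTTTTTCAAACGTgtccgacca
These lie on the plus strand, Itgae at chr11:73145646-73147077, Itga4 at chr2:79325689-79326546, Itga6 at chr2:71849501-71853560, Itgal at chr7:127330234-127333478 and Itgav at chr2:83802997-83803266. The 5 α chains use different codons for the same site: of its 15 bases, Itgae shared 13 with Itga6 and with Itgav and 12 with Itga4 and with Itgal. Each of the 9 stretches is coding sequence that crosses a splice junction, so each interval includes the intron, and the second exon is the last of the transcript except in Itga6 (exon 25 of 26). None of the 10 genes' principal transcripts shared a 50-base stretch with another of the 10. With genes outside the 10, counting either strand, the share of such stretches was 10.9% for Itga4 and 6.50% for Itga6 (Gm29397). It was 1.16% for Itgb2 (Gm14699) and 0.0872% for Itgb3. For Itga4 the gene sharing the most was Cerkl, which overlaps it on the other strand. Reads in shared stretches may be split between genes.

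In the BMPR1a-deficient group, Itgb3, the β3 chain, fell, and Cdh1, which was under 1 FPKM in each WT library, rose. Itgae, the αE chain, was higher in each BMPR1a-deficient library than anywhere in WT, varied widely among WT libraries and did not pass the test. The other 7 genes were within 0.3 of 0 on the log2 scale. Because the choice of genes used this contrast, the fold changes and p-values below describe these libraries and give no independent support. Fold changes are BMPR1a-deficient minus WT on the log2(FPKM + 1) scale, which understates changes of low genes. P-values come from limma, adjusted with Benjamini-Hochberg over the 13413 genes whose mean FPKM was at least 1. All 10 genes passed that filter, Cdh1 only through the BMPR1a-deficient libraries. Of the 10 genes, 1 was called higher (Cdh1) and 1 lower (Itgb3) at an adjusted p under 0.05, against 0.746% and 0.321% of all genes tested (1.07% in either direction). Over all genes 69.9% of the 143 calls were higher, and 55.7% with quantile normalization. The groups did not overlap in 3 genes on the higher side (Itgae, Cdh1 and Itgal) and 2 on the lower (Itgb3 and Itgb7), against 15.9% and 10.4% of all genes tested (26.3% either way). The median log2 fold change of the 10 genes was 0.12, and that of all genes tested 0.04.

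Bmpr1a, the targeted gene, was at 1.39, 2.34 and 1.31 FPKM in WT and at 0.439, 0.720 and 0.691 in the BMPR1a-deficient group, without overlap and without passing the test (log2 fold change -0.71, limma adjusted p = 0.183). Whether reads of it fall in the deleted part was not tested. The genes of the sort were present in each library, with Cd4 between 329 and 436 FPKM and Foxp3 between 49.4 and 96.9. Of the 9 T cell and regulatory T cell markers listed none was called, where 1.07% of all genes tested were. The groups did not overlap for 2 markers on the higher side and 1 on the lower, against 15.9% and 10.4% of all genes tested. They were Ikzf2 (mean 25.5 FPKM in WT, 47.5 in the BMPR1a-deficient group), Tnfrsf18 (135 and 194) and, lower, Ctla4 (254 and 170.3). BMPR1a-deficient replicate 1 stood apart: its 13 mitochondrially encoded transcripts summed to 5335 FPKM, against 44660 and 44710 in the other libraries of its group and 50440 to 53790 in WT. Myeloid and dendritic markers summed to between 24.1 and 131.8 FPKM in WT and between 20.0 and 220.1 in the BMPR1a-deficient libraries, with WT replicate 1 the highest of its group. Depth, read from the smallest steps in the values, was about 30300000 to 38300000 fragments per library.

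**Figure D1:**
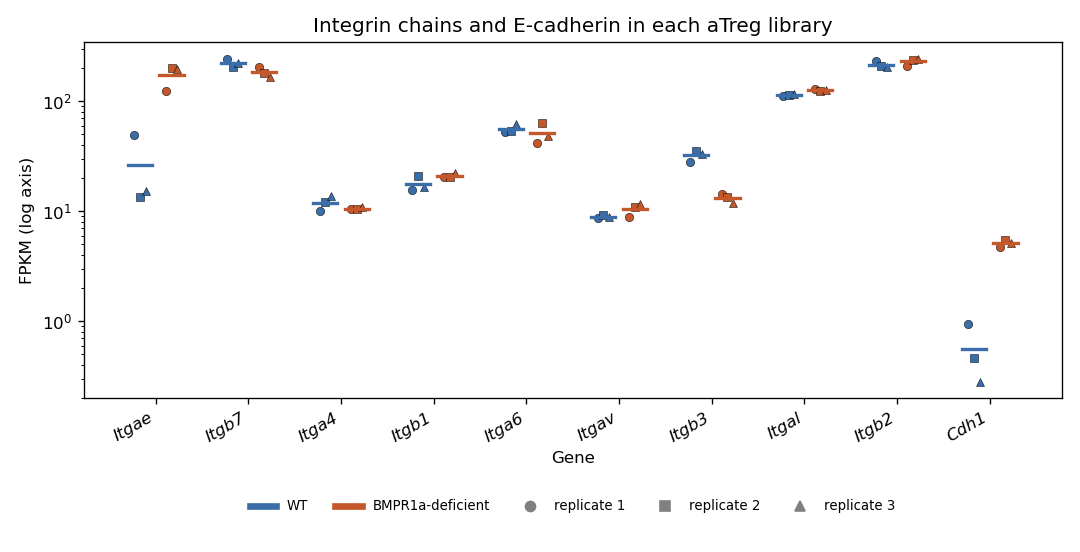
FPKM (log axis) of the 9 integrin chains and Cdh1 in each of the 6 libraries, with WT in blue, BMPR1a-deficient in orange, a symbol for each replicate and a bar at each group mean. Itgae and Cdh1 lie higher and Itgb3 lower in all 3 BMPR1a-deficient libraries than anywhere in WT, and WT replicate 1 stands above the other WT libraries for Itgae (49.5 FPKM) and Cdh1 (0.946 FPKM).

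Itgae (ENSMUSG00000005947, chr11:73090583-73147446 on GRCm38, plus strand), the αE chain of CD103, differed widely between the groups without passing the test. The 3 WT libraries held 49.5, 13.4 and 15.2 FPKM, against 123.7, 198 and 195 in the BMPR1a-deficient group. Each BMPR1a-deficient library was above each WT library, with WT replicate 1 the highest WT library and BMPR1a-deficient replicate 1 the lowest of its group. The means were 26.05 ± 20.3 and 172 ± 42.2 FPKM (SD, n = 3 per group), a ratio of 6.62. The log2 fold change was 2.90 (SE 0.509), which ranked 65 from the top of the 13413 genes, and it did not pass the threshold (limma, adjusted p = 0.0709). It passed without WT replicate 1, with a log2 fold change of 3.47 (limma adjusted p = 0.0272), and when only protein-coding genes were tested (adjusted p = 0.0202). Without BMPR1a-deficient replicate 1 it was 3.12 (adjusted p = 0.0965).

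WT libraries varied more in Itgae than in any other of these genes. The coefficient of variation was 78.0% for Itgae and 61.4% for Cdh1 in WT, and between 1.72% and 16.3% for the other 8 genes. Within the BMPR1a-deficient group Itgae varied by 24.5%, Itga6 by 22.4% and Cdh1 by 6.78%. Other cell types of the spleen and lymph node carry αE, among them CD8 T cells and a class of dendritic cells. Cd8a was at 11.7, 9.56 and 8.80 FPKM in WT and at 13.8, 17.2 and 29.1 in the BMPR1a-deficient libraries, all 3 of which lay above WT. Cd8b1 overlapped between the groups, and the 8 CD8 T and NK markers summed to 55.5 to 64.5 FPKM in WT and 42.4 to 81.0 in the BMPR1a-deficient libraries. Besides Cd8a, the groups did not overlap for Klrb1c, higher with means of 0.0892 FPKM in WT and 0.669 in the BMPR1a-deficient group. Nor did they for Gzmb, lower with means of 14.96 and 3.63. None of the 5 tested among these 8 was called, where 1.07% of all genes tested were. The part of CD8 T and NK cells in the Itgae difference was not tested. Mast cells also carry αE. The 6 mast cell and basophil markers summed to 2.09 to 3.21 FPKM in WT and 1.10 to 5.09 in the BMPR1a-deficient libraries. Of these only Ms4a2 did not overlap between the groups, with means of 0.0451 FPKM in WT and 0.200 in the BMPR1a-deficient group. The part of mast cells in the Itgae difference was not tested. Among the 12 myeloid and dendritic markers, the dendritic genes reached at most 0.804 FPKM for Itgax, 0.684 for Zbtb46, 0.534 for Flt3, 0.113 for Xcr1 and 0.0100 for Clec9a. These dendritic genes were all below the filter, so the 7 tested among the 12 were other myeloid markers. None of the 7 was called, where 1.07% of all genes tested were. The part of dendritic cells in the Itgae difference was not tested. In bulk RNA, fewer cells with a transcript and less transcript per cell cannot be told apart.

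Itgb7 (ENSMUSG00000001281), the partner of αE and of α4, was at 242 FPKM, 206 and 221 in WT and at 204, 181 and 165 in the BMPR1a-deficient group. The groups did not overlap, but the lowest WT library and the highest BMPR1a-deficient library nearly met. The log2 fold change of Itgb7 was -0.28 (SE 0.131, limma adjusted p = 0.373). The Itgae to Itgb7 ratio within a library, which does not depend on scaling between libraries, was 0.204, 0.0653 and 0.0689 in WT. In BMPR1a-deficient aTreg it was 0.605, 1.10 and 1.18. Thus WT aTreg held several-fold more β7 than αE transcript, and in 2 of 3 BMPR1a-deficient libraries αE was above β7.

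Cdh1 (ENSMUSG00000000303, chr8:106603351-106670246, plus strand), the ligand of αEβ7 and an adhesion protein that binds itself between neighbouring cells, rose from a level near 0. The 3 WT libraries held 0.946, 0.459 and 0.279 FPKM of Cdh1, against 4.77, 5.46 and 5.09 in the BMPR1a-deficient group. At the estimated depths these are about 130, 64 and 47 fragments against 760, 780 and 830. No library of one group came near those of the other, and WT replicate 1 was again the highest WT library. The means were 0.561 ± 0.345 and 5.11 ± 0.346 FPKM (SD, n = 3), a ratio of 9.10. The log2 fold change of Cdh1 was 1.99 (SE 0.182, limma adjusted p = 0.0163) and 3.10 with a pseudocount of 0.1 (adjusted p = 0.0323). Which of Cdh1 and Itgae differed more depends on that constant, since Itgae was at 2.90 with a pseudocount of 1 and at 2.95 with 0.1. The call was lost without WT replicate 2 (limma adjusted p = 0.0908), WT replicate 3 (0.0692), BMPR1a-deficient replicate 2 (0.0563) or BMPR1a-deficient replicate 3 (0.0730). It held without either replicate 1, at an adjusted p of 0.0164 for WT and 0.0349 for BMPR1a-deficient.

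E-cadherin is best known from epithelium. The 7 epithelial markers in the table were all under 1 FPKM in each library. They summed to 0.905 to 1.03 FPKM in WT and 1.82 to 2.03 in the BMPR1a-deficient libraries, without overlap. Epcam was at 0.440 to 0.466 FPKM in WT and 0.804 to 0.996 in the BMPR1a-deficient libraries. Ocln (means 0.171 and 0.463 FPKM) and Cldn7 (0.0364 and 0.161) were also higher there without overlap. Krt18, Cldn4 and Esrp1 overlapped between the groups, and Krt19, an epithelial keratin, was listed at 0 in each library. The part of epithelial RNA in the Cdh1 difference was not tested.

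Itgb3 (ENSMUSG00000020689, chr11:104608000-104670476, plus strand), the β3 chain of αvβ3 and of the platelet fibrinogen receptor, fell. The 3 WT libraries held 28.2, 35.1 and 33.2 FPKM, against 14.2, 13.3 and 11.9 in the BMPR1a-deficient group. Every WT library was above every BMPR1a-deficient library, and the groups were far apart relative to their spread. The means were 32.2 ± 3.56 and 13.1 ± 1.18 FPKM (SD, n = 3), so the BMPR1a-deficient mean was 40.8% of WT. The log2 fold change of Itgb3 was -1.23 (SE 0.121, limma adjusted p = 0.0172). The call was lost without WT replicate 2 (limma adjusted p = 0.0927), WT replicate 3 (0.116), BMPR1a-deficient replicate 2 (0.0747) or BMPR1a-deficient replicate 3 (0.0895), and it held without replicate 1 of WT (0.0390) or of the BMPR1a-deficient group (0.0317). Platelets carry β3 with αIIb. The 9 platelet and megakaryocyte markers summed to no more than 2.22 FPKM in WT and 3.47 in the BMPR1a-deficient libraries. Of these, Itga2b, which encodes αIIb, was at 0.975, 1.42 and 0.991 in WT and 2.64, 0.646 and 1.43 in the BMPR1a-deficient libraries. The part of platelet RNA in the Itgb3 difference was not tested.

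Itgav (ENSMUSG00000027087), the α chain that pairs with β3 in T cells, was at 8.72 FPKM, 9.30 and 8.78 in WT and 8.84, 10.8 and 11.7 in the BMPR1a-deficient group, and the groups overlapped. Its log2 fold change was 0.20 (SE 0.119, limma adjusted p = 0.469). The Itgb3 to Itgav ratio was 3.23, 3.77 and 3.78 in WT and 1.61, 1.23 and 1.01 in the BMPR1a-deficient libraries. β3 transcript was thus above αv in all 6 libraries, with a smaller excess in the BMPR1a-deficient group. The β chains that pair only with αv were scarce, with Itgb5 at no more than 0.591 FPKM, Itgb6 listed at 0 in each library and Itgb8 at 0.136 to 0.179 FPKM in WT and 0.225 to 0.389 in the BMPR1a-deficient libraries.

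**Figure D2:**
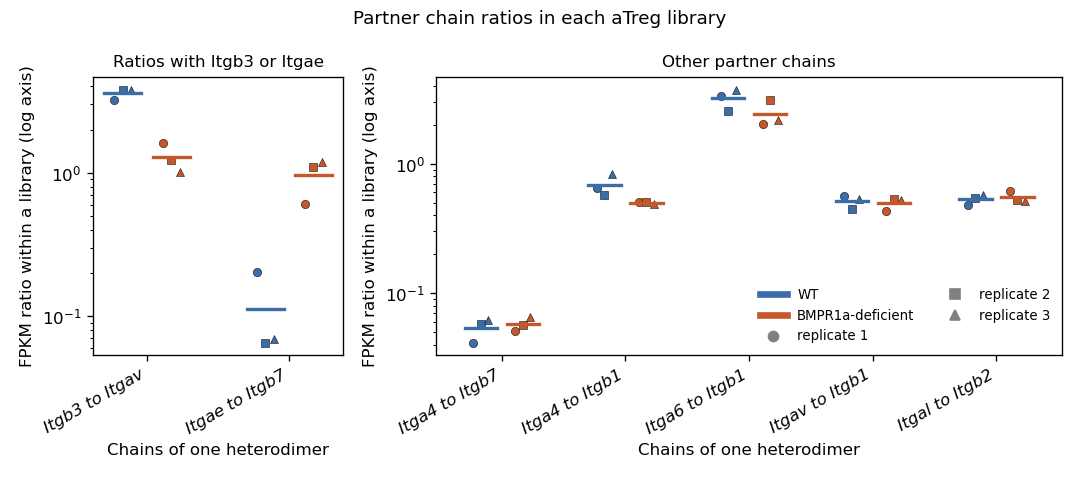
FPKM ratio of partner chains within each library (log axis), WT in blue and BMPR1a-deficient in orange, with a bar at each group mean. The Itgb3 to Itgav ratio (mean 3.59 in WT, 1.28 in BMPR1a-deficient) and the Itgae to Itgb7 ratio (0.113 and 0.962) do not overlap between groups, and neither does Itga4 to Itgb1 (0.686 and 0.501), while the other ratios overlap.

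The remaining 5 integrin genes had log2 fold changes between -0.16 and 0.25, and none passed the threshold in limma. With Itgav and Itgb7 that makes 7 of the 10 genes within 0.3 of 0 on that scale, where 68.8% of all genes tested lay. Itgal (ENSMUSG00000030830), the αL chain of LFA-1, was at 112, 113.6 and 116 FPKM in WT and 130.0, 124 and 126 in the BMPR1a-deficient group. The groups did not overlap, but the difference was small, with a log2 fold change of 0.15 (SE 0.0895, limma adjusted p = 0.469). Itgb2 (ENSMUSG00000000290), its β2 partner, was at 233, 209.6 and 202 FPKM in WT and 210.5, 236 and 243 in the BMPR1a-deficient group, with overlapping groups and a log2 fold change of 0.10 (limma adjusted p = 0.703). The Itgal to Itgb2 ratio was 0.532 ± 0.0479 in WT and 0.553 ± 0.0566 in the BMPR1a-deficient libraries (SD, n = 3).

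Itga4 (ENSMUSG00000027009), the α4 chain of the VCAM-1 and MAdCAM-1 receptors, was at 10.1 FPKM, 12.0 and 13.8 in WT and 10.4, 10.4 and 10.9 in the BMPR1a-deficient group. Its log2 fold change was -0.16 (limma adjusted p = 0.571). A gene on the other strand, Cerkl, overlaps 8.04% of the annotated exon bases of Itga4 and was itself at 8.95 to 11.8 FPKM, so without known strand handling the Itga4 level is uncertain. Itgb1 (ENSMUSG00000025809), the β1 chain shared by α4, α6 and αv, was at 15.5 FPKM, 20.9 and 16.6 in WT and 20.5, 20.4 and 22.3 in the BMPR1a-deficient group. The groups overlapped through WT replicate 2, and the log2 fold change of Itgb1 was 0.25 (limma adjusted p = 0.418). The Itga4 to Itgb1 ratio was 0.648, 0.573 and 0.836 in WT and 0.508, 0.509 and 0.487 in the BMPR1a-deficient libraries, without overlap. Itga6 (ENSMUSG00000027111), the α6 chain of laminin receptors, was at 51.9 FPKM, 53.4 and 61.6 in WT and 41.3, 63.8 and 48.4 in the BMPR1a-deficient group. Its groups overlapped, and its log2 fold change of -0.14 (limma adjusted p = 0.718) was 0.0022 without BMPR1a-deficient replicate 1, so no direction can be given.

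**Figure D3:**
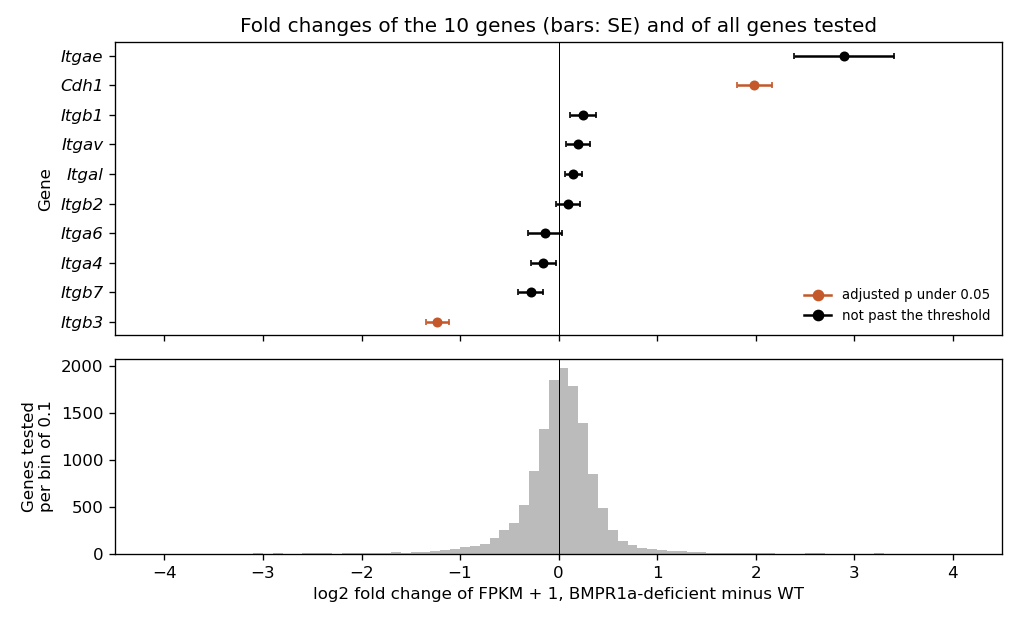
Upper panel: log2 fold change of FPKM + 1 (BMPR1a-deficient minus WT) of the 10 genes, with SE bars, orange where the adjusted p was under 0.05. Lower panel: the same quantity for all genes tested, per bin of 0.1. Itgae at 2.90, Cdh1 at 1.99 and Itgb3 at -1.23 lie outside the bulk of genes, and the other 7 lie inside it.

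FPKM is per transcript length, so the levels of the 10 genes can be ordered. In WT the order of mean FPKM was Itgb7 (223), Itgb2 (215), Itgal (113.9), Itga6 (55.7), Itgb3 (32.2), Itgae (26.05), Itgb1 (17.7), Itga4 (11.96), Itgav (8.94) and Cdh1 (0.561). Among neighbours in this order, the libraries of Itgb7 and Itgb2, of Itgb3 and Itgae, and of Itgae and Itgb1 overlapped. In BMPR1a-deficient aTreg the order was Itgb2 (230.0), Itgb7 (183), Itgae (172), Itgal (126), Itga6 (51.2), Itgb1 (21.1), Itgb3 (13.1), Itga4 (10.55), Itgav (10.5) and Cdh1 (5.11). There the libraries of Itgb7 and Itgae, of Itgae and Itgal, and of Itga4 and Itgav overlapped. The place of Itgae in WT depended on the library: it was above Itgb3 in WT replicate 1 and below both Itgb3 and Itgb1 in the other WT libraries. In the BMPR1a-deficient group it was above Itgal except in replicate 1.

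The 17 other integrin chains were low. Of the 13 other α chains, 4 passed the filter and none was called, where 1.07% of all genes tested were. The median log2 fold change of the 4 was -0.01. Itgam, the myeloid αM chain, was at 3.86 ± 1.06 and 3.74 ± 1.58 FPKM (SD, n = 3), and Itga7, a laminin receptor chain, at 0.872, 3.62 and 5.33 in WT and 0.648, 0.760 and 0.936 in the BMPR1a-deficient libraries. None of the 4 other β chains reached 1 FPKM in any library. Summed over a library, the other α chains reached 8.40 to 14.8 FPKM and the other β chains no more than 0.985, against 674 to 863 FPKM for the 10 genes described.

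Talins, kindlins and the small GTPase Rap1 switch integrins on from inside the cell. With 1.07% of all genes tested called in either direction, a list of this size would hold few or no calls at that rate. Of the 34 genes of integrin activation and adaptors, 29 were tested, 0 were called higher and 0 lower, and 19 had negative fold changes, with a median of -0.13 against 0.04 over all genes. The most abundant, Fyb, the adaptor ADAP, was at 243 ± 24.9 and 219 ± 12.7 FPKM (SD, n = 3), and Rap1b, a small GTPase that triggers integrin activation, at 226 ± 11.98 and 172 ± 40.6 (limma adjusted p = 0.380), with BMPR1a-deficient replicate 1 the lowest at 125. Tln1, which encodes talin and was singled out because it binds the sites shown above, was at 93.9, 96.9 and 110.7 FPKM in WT and 210, 103.7 and 102 in the BMPR1a-deficient libraries, with only replicate 1 apart.

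Among integrin ligands 8 of the 28 genes in the table were tested, with a median log2 fold change of 0.17, and none was called, where 1.07% of all genes tested were. Tgfb1, whose latent form is bound by αv integrins, was at 69.7 ± 7.25 and 79.97 ± 3.73 FPKM (SD, n = 3). Icam2, a ligand of αLβ2, was at 48.9, 54.3 and 54.3 FPKM in WT and 27.6, 36.0 and 32.7 in the BMPR1a-deficient group. Its groups did not overlap, and it did not pass the threshold (log2 fold change -0.70, limma adjusted p = 0.0749). The 4 tested partners of E-cadherin had positive fold changes with a median of 0.24 and no call. Ctnnb1, which encodes β-catenin, was at 93.2 ± 1.31 and 103.4 ± 17.3 FPKM, and Adam10, the protease that sheds E-cadherin, at 49.5 ± 3.94 and 53.5 ± 8.95. Klrg1, another receptor for E-cadherin on lymphocytes, stayed under 0.1 FPKM. Of the E-cadherin repressors 1 of the 6 in the table was tested: Zeb1 had 14.8 ± 2.43 FPKM in WT and 11.4 ± 1.53 in the other group (limma adjusted p = 0.375), and Zeb2 was below the filter.

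The list of other adhesion and homing molecules had 17 tested genes, a median log2 fold change of -0.20 and no call in either direction, where 1.07% of all genes tested were called. Cd2, an adhesion receptor of T cells, was at 391 ± 10.4 and 340.5 ± 21.3 FPKM, and Selplg, the selectin ligand PSGL-1, at 273 ± 39.3 and 221 ± 51.03 (SD, n = 3).

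TGF-beta was added to every culture, and αE is among the genes it induces, so TGF-beta response genes were set beside Itgae. Of the 12 listed, 10 were tested, and 1 was called higher and 0 lower, against 0.746% and 0.321% of all genes tested. Among those tested, 9 had positive fold changes and the median was 0.42, against 0.04 over all genes. The called gene was Ldlrad4, which encodes an inhibitor of TGF-beta receptor signalling, at 12.6, 8.08 and 8.18 FPKM in WT and 21.98, 25.7 and 26.3 in the BMPR1a-deficient group (log2 fold change 1.29, limma adjusted p = 0.0450). This call did not survive leaving out any single library other than WT replicate 1, at adjusted p between 0.0678 and 0.224, and under quantile normalization (0.0564), upper-quartile scaling (0.0581) or no filter on low genes (0.0758). Genes singled out after their values were seen were Skil, which encodes a SMAD corepressor, with a log2 fold change of 1.02 (limma adjusted p = 0.0520), and Pmepa1, which encodes a feedback inhibitor, with 0.87 (adjusted p = 0.151). In WT replicate 1, where Itgae was highest among WT libraries, Ldlrad4, Skil and Pmepa1 were also highest, at 12.6, 36.6 and 21.0 FPKM. The other WT libraries had 8.08 and 8.18, 27.6 and 27.5, and 12.1 and 13.5 FPKM for these genes. Myeloid and dendritic markers were also highest in that library among WT, at a sum of 131.8 FPKM against 24.1 and 48.5. With 3 libraries in a group, this is a description only, and the part of TGF-beta signalling in the Itgae difference was not tested.

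**Figure D4:**
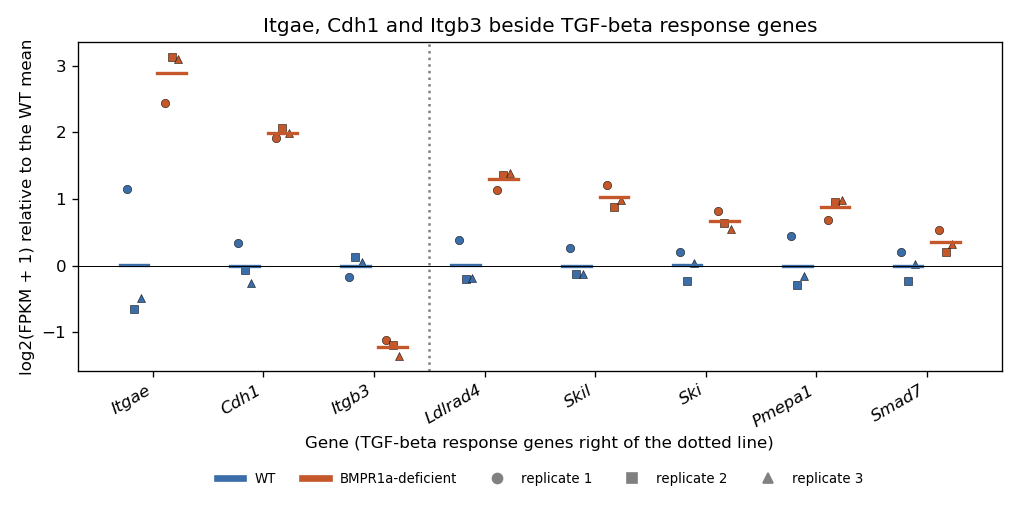
log2(FPKM + 1) relative to the WT mean for Itgae, Cdh1 and Itgb3 and, right of the dotted line, for 5 TGF-beta response genes in each library, with a bar at each group mean. WT replicate 1 (blue circle) is the highest WT library for Itgae (1.15), Cdh1 (0.34) and each of the 5 response genes, and the lowest for Itgb3 (-0.18).

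The genes with the most similar profile were found by the root mean square difference of log2(FPKM + 1) relative to the WT mean over the 6 libraries, among 7918 protein-coding genes. For Itgb3 these were Srp9, a subunit of the signal recognition particle, at a difference of 0.131, Rnpep, an aminopeptidase, at 0.157, and Lad1, a cytoskeletal linker, at 0.167. Srp9 was at 64.2 ± 2.23 FPKM in WT and 27.5 ± 0.338 in the BMPR1a-deficient group. The closest to Cdh1 were Rgs16, a regulator of G protein signalling (0.198), the chemokine gene Xcl1 (0.239) and Cyp1a1, a target of the aryl hydrocarbon receptor (0.259). Rgs16 was at 6.70 ± 1.39 and 31.7 ± 2.87 FPKM. No candidate came as close to Itgae: Kit was at 0.594, Xcl1 at 0.598 and Wls at 0.632. Kit, the stem cell factor receptor, was at 12.7, 6.92 and 5.69 FPKM in WT and 29.7, 41.6 and 50.2 in the BMPR1a-deficient group, so it shared with Itgae the high WT replicate 1 and the low BMPR1a-deficient replicate 1.

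**Figure D5:**
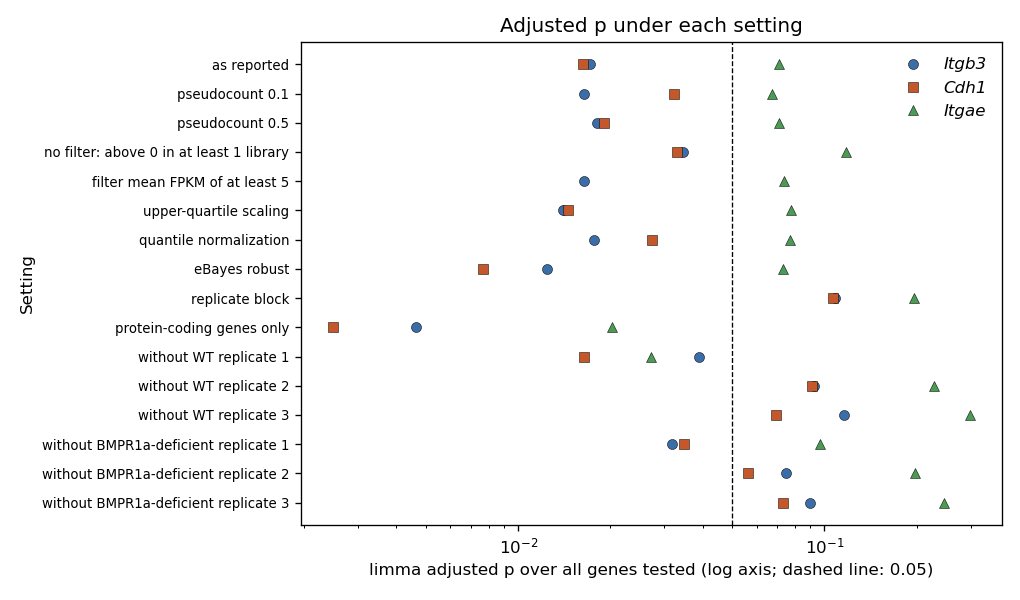
Limma adjusted p (log axis) of Itgb3, Cdh1 and Itgae under the reported setting and 15 alternatives, with a dashed line at 0.05. Itgb3 and Cdh1 lie left of the line except with a replicate block and without replicate 2 or 3 of either group, Itgae lies left of it without WT replicate 1 and with protein-coding genes only, and Cdh1 has no value under the filter of 5 FPKM.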

How the data were processed

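The deposited values are FPKM, made by the authors, with 1 column per library. Per the submitters' processing notes TopHat2, Cufflinks and Cuffdiff were used with GRCm38.p4. For versions, settings, strand handling, annotation and scaling between libraries the sources used here give nothing. Symbols came from GENCODE M21 (GRCm38), which matched 24876 of 25759 identifiers, and 0 columns were left unmapped. Genes averaging 1 FPKM or more were tested with limma 3.58.1 (R 4.3.3) on log2(FPKM + 1), with a group term and a trended eBayes step, two-sided, Benjamini-Hochberg at 0.05, and the fit was tested on simulated data. Depth was estimated from the densest low value of FPKM times length in 3536 genes with 1 annotated transcript, which stands for about 1 fragment. Coding stretches came from GENCODE principal transcripts, searched in the last 150 codons. The 10 genes and the gene lists were chosen with earlier results of these data known. Named in other lists are up to 3 called genes, or otherwise up to 2 of the most abundant. The 15 alternatives varied pseudocount, filter, scaling, eBayes, biotype, a replicate block and each library left out. Listed genes outside the table were not analysed here.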

Additional observations from a re-analysis of the deposited data

How the results depend on the processing

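Of 149 values of the 10 genes under 15 alternatives, 136 kept direction and side of the threshold, 10 lost a call, 2 gained one (both Itgae) and 1 turned (Itga6, 0.0022 without BMPR1a-deficient replicate 1, with a range of -0.30 to 0.0022 over the left-out libraries). Log2 fold changes ranged from -1.32 to -1.16 for Itgb3, 1.86 to 3.10 for Cdh1 and 2.57 to 3.47 for Itgae. A mean FPKM of at least 5 left 0 of the 10 genes higher, since Cdh1 was no longer tested, and 27 genes lower over the table. Quantile normalization gave 70 lower genes. With protein-coding genes only, 202 genes were higher, 94 lower and 2 of the 10 genes higher. Leaving out a library gave 10 to 134 higher and 4 to 76 lower genes, and 0 to 2 and 0 to 1 of the 10 genes. The cause of these shifts was not tested. The replicate block left 5 higher and 5 lower genes, and 0 and 0 of the 10 genes (limma adjusted p = 0.108 for Itgb3, 0.107 for Cdh1). Deviations of same-numbered libraries correlated at 0.0103, 0.0645 and 0.0518 across genes, and those of other pairs between -0.0935 and 0.0412. With 3 libraries in a group, these values cannot decide whether the numbers pair the libraries. With protein-coding genes only, Icam2 (0.0374) and Skil (0.0175) also passed in limma, and with the block Ldlrad4 did not (0.166). Depth limits Cdh1 most, at about 47 to 130 fragments in WT.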

Other observations

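Haspin, which encodes a mitotic histone kinase and lies inside the Itgae gene on the other strand, was singled out for its position. WT libraries held 16.5, 10.9 and 8.99 FPKM and BMPR1a-deficient libraries 24.6, 25.8 and 25.5, without overlap between the groups and with WT replicate 1 again the highest WT library. Its log2 fold change of 1.04 did not pass the threshold (limma adjusted p = 0.0975) and passed without WT replicate 1 (0.0448) and with protein-coding genes only (0.0386). The exons of Haspin and Itgae share 0 bases in the annotation. Without known strand handling it is uncertain whether reads of unspliced Itgae RNA were counted for Haspin, and this was not tested.

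Lrrc32, which encodes GARP, the protein that presents latent TGF-beta on regulatory T cells to αv integrins, was singled out after its values were seen. The WT mean was 5.44 ± 0.595 FPKM and the BMPR1a-deficient mean 10.4 ± 2.51 (SD, n = 3), without overlap, and did not pass the threshold (log2 fold change 0.80, limma adjusted p = 0.119).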
